A study of Mus musculus with 4 samples.

Results

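The genes described here are the Wnt and Fgf ligand genes of the mouse. They were taken as every protein-coding gene of the GENCODE M21 annotation (genome build GRCm38, also called mm10) whose symbol is Wnt or Fgf followed by a number and, for Wnt, an optional a or b. The rule returned 41 of 21951 protein-coding genes, 19 Wnt and 22 Fgf. It used names only and no measured value. The data are lists of transcription start regions from 4 PRO-seq libraries of E14.5 mouse tissue, 2 of liver and 2 of yolk sac, each prepared from 6 pooled embryos. PRO-seq maps RNA polymerases that are engaged on chromatin by letting them extend their nascent RNA with labelled nucleotides. All embryos came from C57BL/6J mothers. The fathers had a mixed C57BL/6J and CAST/EiJ background and were chosen so that the Dlk1/Gtl2 region of chromosome 12 came from CAST/EiJ, and both tissues share this cross. No ligand gene of the list lies on chromosome 12.

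Wnt proteins are lipid-modified secreted glycoproteins that bind Frizzled receptors with Lrp5 or Lrp6 and stabilise β-catenin, or act through Ror and Ryk receptors on cell shape and movement. Most Fgf proteins are secreted, bind heparan sulfate near the cell that makes them and activate Fgf receptor tyrosine kinases. A small endocrine group circulates and needs Klotho proteins as co-receptors, and an intracellular group does not signal through the receptors but binds voltage-gated sodium channels. Both families carry signals between the epithelium, mesenchyme and vessels of developing organs. The fetal liver at this age is a main site of blood formation, while the visceral yolk sac is an absorptive endoderm backed by mesoderm that includes vessels and a mesothelial surface.

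Each library was represented by a list of scored intervals, here called peaks. They are calls of dREG, per the file names, a classifier that recognises promoters and distal start sites by their run-on signal. The liver lists held 24863 and 24333 peaks, and those of yolk sac 50525 and 43055, a ratio of tissue means of 1.9. No read counts were in the lists, so depth is unknown, and neither an interval nor a detection limit can be given for a gene without a peak. Because scores were not scaled between libraries, each peak is described by its percentile, the share of peaks of its own list with the same or a lower score. The narrowest peak was 102 bp wide in each list. All 6 erythroid markers had a promoter peak in both liver libraries, and 4 of them (Klf1, Alas2, Gata1 and Slc4a1) had none in yolk sac, where Epor and Tfrc were called. All 7 visceral endoderm markers had a promoter peak in each yolk sac library. In liver replicates 1 and 2 the number was 5 and 3, with Amn and Cubn in yolk sac only. Of 6 hepatocyte markers, of which Ttr, Afp and Hnf4a are also in the endoderm list, 4 were called in all 4 libraries, Afp in all but liver replicate 2 and Serpina1a in none. In such bulk tissue, fewer cells of a type and less RNA synthesis per cell cannot be told apart. The labels do not say whether replicate pools came from separate litters, so the spread between them may be partly technical.

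A gene was counted as called in a library when a peak overlapped the 500 bp on either side of any of its annotated starts by at least 1 bp. The 2 liver libraries called 6 and 13 ligand genes, and the 2 yolk sac libraries called 18 and 15. The mean was 9.5 ± 4.95 for liver and 16.5 ± 2.12 for yolk sac (SD, n = 2). The difference of 7 was larger than either SD, but liver replicate 2 lay within 2 genes of yolk sac replicate 2, and the difference shrank to 0.5 when every list was cut to its 24333 highest-scoring peaks. Among all protein-coding genes, 56.1% and 57.9% were called in the liver libraries and 63.8% and 62.4% in the yolk sac libraries. Wnt ligands accounted for 3, 7, 11 and 9 of the called genes in liver replicates 1 and 2 and yolk sac replicates 1 and 2. Fgf ligands accounted for 3, 6, 7 and 6 in the same order.

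Across the 4 lists, 5 ligand genes were called in every library (12.2%, against 53.8% of all protein-coding genes), and 22 were called in none (53.7%, against 34.2%). In both yolk sac libraries and neither liver library stood 4 ligand genes, Fgf10, Fgf22, Wnt6 and Wnt7b (9.76%, against 5.25% of all genes). The reverse pattern held for Fgf13 alone (2.44%, against 1.01%). For 6 more genes, Fgf2, Fgf9, Wnt2b, Wnt5a, Wnt5b and Wnt11, liver replicate 1 was the only list without a promoter peak (the background of this pattern was 2.23%). Fgf11 was called in liver replicate 2 and yolk sac replicate 1, and Wnt9b and Wnt10b in yolk sac replicate 1 only. Without liver replicate 2 the yolk-sac-only count rose from 4 to 10, and without liver replicate 1 the count called in every remaining library rose from 5 to 11.

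**Figure D1:**
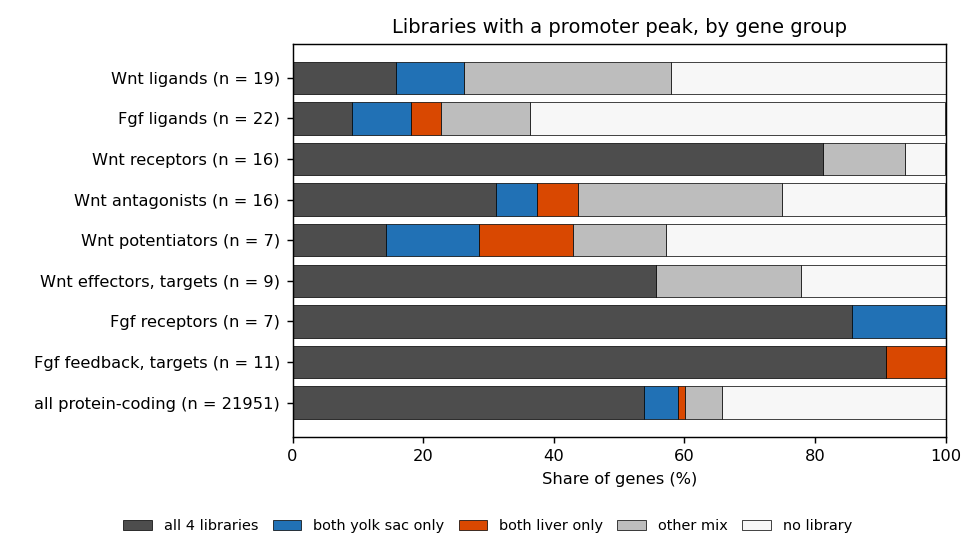
Share of genes (x axis, percent) in each gene group (y axis, with the number of genes) by the libraries in which a promoter peak was called; each bar adds up to all genes of its group. The ligand bars hold 12.2% of members in all 4 libraries against 53.8% of all protein-coding genes, whereas Wnt and Fgf receptors are mostly called in all 4.

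The members called in all libraries were the Wnt genes Wnt2, Wnt4 and Wnt9a and the Fgf genes Fgf1 and Fgf20. Wnt2, which acts with Wnt2b in lung specification and is made by liver endothelium, ranked at percentiles 17.7 and 32.0 in the liver libraries and 68.5 and 70.8 in the yolk sac libraries. Its peak was 252 and 852 bp wide in liver and 2802 and 2702 bp wide in yolk sac. Liver replicate 2 had a further peak upstream, outside the promoter window and within the span of the yolk sac peaks (percentile 35.3), so the widths compare single calls with a split one. The yolk sac peaks had midpoints at -666 and -616 bp from the start. A rule that asks for the midpoint within 500 bp turned the gene to liver only. Wnt4, needed for kidney tubule and female reproductive duct formation, ranked at 12.2 and 25.2 in liver and at 73.0 and 87.1 in yolk sac. Its widths were 452 and 852 bp in liver against 1752 and 1552 bp in yolk sac. For Wnt2 and Wnt4, then, both yolk sac percentiles of the promoter peak exceeded both liver percentiles.

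Wnt9a, which takes part in joint formation, ranked at 37.9 and 91.8 in liver and 79.4 and 71.8 in yolk sac, so its tissues overlapped and its liver replicates were far apart. Fgf20, a ligand of the developing inner ear, also overlapped, at 64.8 and 80.9 in liver against 59.9 and 83.5 in yolk sac. The Fgf20 peak also covered starts of Micu3, a mitochondrial calcium uptake gene, and of Mir7666, and the list cannot assign it to one of them. Over the 11805 genes called in all libraries, both yolk sac percentiles lay above both liver percentiles in 34.4% and the reverse held in 22.1%. Among the 5 ligand genes of this kind these counts were 3 and 0.

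**Figure D2:**
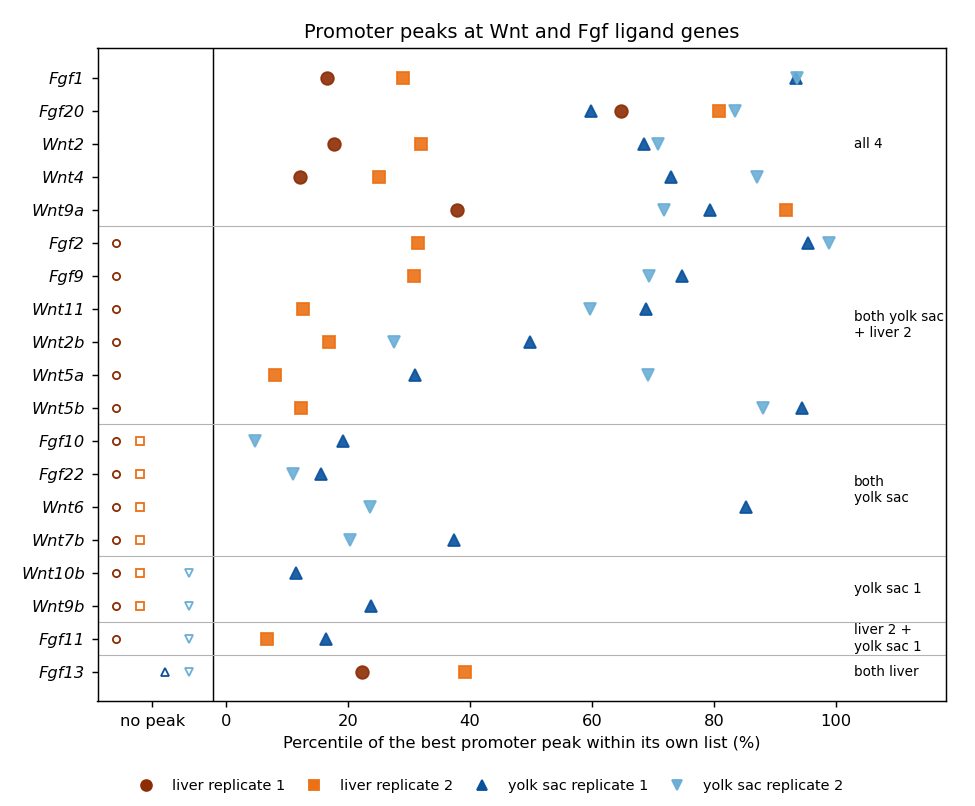
Percentile of the highest-scoring promoter peak within its own list (x axis, percent) for the 19 ligand genes with a promoter peak in at least 1 library (y axis, grouped by the libraries called); filled symbols are single libraries, and open symbols at the left mark libraries without a peak. Liver symbols of Fgf1, Wnt2 and Wnt4 lie between 12.2 and 32.0, and their yolk sac symbols between 68.5 and 93.7. The Fgf1 symbols of the tissues come from different starts, and at its start called in all libraries yolk sac stood at 54.0 and 61.8.

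Fgf1, acidic Fgf, which binds every Fgf receptor, differed between the tissues in which of its starts had a called peak. The gene spans chr18:38838673-38929472 on the minus strand and has 9 annotated starts. The outermost 3 starts had a peak only in yolk sac, at percentiles 93.4 and 93.7, with widths of 1302 and 1152 bp. The next start, 10701 bp downstream and also the start of a protein-coding transcript, had a peak in every library. There the percentiles were 16.6 and 29.1 in liver and 54.0 and 61.8 in yolk sac. Starts 62469 to 63340 bp downstream were again covered in yolk sac only, at 80.4 and 59.1. Thus the liver calls of Fgf1 rested on a single inner start, and no liver peak lay at its outermost starts.

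Wnt5b, a ligand of the β-catenin-independent branch, also had a tissue difference between starts. At its outermost start on chromosome 6 the percentile was 12.3 in liver replicate 2, 79.7 in yolk sac replicate 1 and 65.5 in yolk sac replicate 2, with no peak in liver replicate 1. The liver peak there was 152 bp wide. An inner start 77136 bp downstream had peaks of 1152 bp in both yolk sac libraries, at 94.5 and 88.1, and none in liver. A start 94961 bp downstream was likewise called in yolk sac only, at 26.3 and 18.5.

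The promoter windows of Wnt5b are printed because its outer and inner starts differed both in the libraries called and in sequence; this pair was chosen after its values were seen. Each window runs from 250 bases before to 50 bases after a RefSeq start (build GRCm38.p6) on the gene's strand, written 5′ to 3′, with every CG pair, the site of DNA methylation in mammals, in capitals. The outer window, chr6:119544298-119544597 on the minus strand, held 47 CG pairs and 78.0% G or C. The inner window, chr6:119467162-119467461 on the minus strand, held 4 CG pairs and 53.0% G or C, against a median of 7 CG pairs and 52.7% over all 32851 windows. As many CG pairs as in the outer window, or more, were present in 1.44% of all windows.
Wnt5b outer start: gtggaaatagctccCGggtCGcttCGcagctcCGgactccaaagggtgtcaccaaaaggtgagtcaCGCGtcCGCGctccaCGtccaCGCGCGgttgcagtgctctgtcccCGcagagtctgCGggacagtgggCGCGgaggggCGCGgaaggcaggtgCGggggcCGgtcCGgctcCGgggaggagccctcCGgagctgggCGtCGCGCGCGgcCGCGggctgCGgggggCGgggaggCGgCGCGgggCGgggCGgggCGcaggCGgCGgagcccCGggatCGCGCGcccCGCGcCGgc
Wnt5b inner start: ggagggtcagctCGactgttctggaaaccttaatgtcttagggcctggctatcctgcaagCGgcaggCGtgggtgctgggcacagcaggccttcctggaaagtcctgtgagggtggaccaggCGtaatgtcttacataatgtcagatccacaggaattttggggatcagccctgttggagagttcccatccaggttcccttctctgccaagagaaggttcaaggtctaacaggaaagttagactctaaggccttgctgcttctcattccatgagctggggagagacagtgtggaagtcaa

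The ligand genes called in yolk sac only are described next, with their windows where RefSeq gave one. Wnt6, an epithelial Wnt that lies next to Wnt10a on chromosome 1, had a peak at chr1:74771251-74773702 in yolk sac replicate 1 (2452 bp, percentile 85.3). In yolk sac replicate 2 the peak was at chr1:74771801-74772252 (452 bp, percentile 23.6). Both covered the annotated start at 74771892. Replicate 2 had a further peak (percentile 51.1) inside the span of the replicate 1 peak but outside the promoter window, so the difference in rank and width is between 1 broad call and a split one. Among the equally long lists, and among the higher-scoring 50% of each list, Wnt6 kept a peak in yolk sac replicate 1 only.

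Fgf22, which organises synapses in the brain and is expressed in skin, had the same interval, chr10:79755051-79755152, in both yolk sac lists, at the first annotated base of the gene. It was 102 bp wide in each, the narrowest width in the lists, with percentiles 15.6 and 11.1. Fgf10, the mesenchymal signal that drives lung and limb budding and is made by fetal liver stellate cells, was called at the start of its protein-coding transcript, 118714699 on chromosome 13. Yolk sac replicate 1 had chr13:118714201-118715252 (1052 bp, percentile 19.3), which also covers a start of the antisense gene Gm16263. In yolk sac replicate 2 a 102 bp peak at chr13:118714251-118714352 (percentile 4.74) ended 347 bp before the start. A window of 250 bp therefore lost the second library for Fgf10.

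Wnt7b, a Wnt of lung and kidney epithelium, had no start that was called in both yolk sac libraries. Replicate 1 had a peak of 1352 bp at chr15:85580601-85581952 (percentile 37.5), over 3 protein-coding starts and a start of AU022754. Replicate 2 had one of 552 bp at chr15:85566751-85567302 (percentile 20.4), at the start of a processed transcript 15451 bp downstream of the first start. With starts of protein-coding transcripts alone, Wnt7b was called in 1 yolk sac library. At equal list lengths Fgf10, Fgf22 and Wnt7b had no promoter peak in any library, so of the 4 yolk-sac-only calls none remained.

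Fgf13, an intracellular Fgf that binds sodium channels and microtubules, was the only ligand gene called in both liver libraries and neither yolk sac library. The peaks were chrX:59134151-59134952 (802 bp, percentile 22.4) in liver replicate 1 and chrX:59133551-59134952 (1402 bp, percentile 39.2) in liver replicate 2. They lay at the sixth of its 8 starts, a protein-coding start 433635 bp downstream of the first. The nearest yolk sac peaks were 835480 and 835580 bp from any of its starts. Among the higher-scoring 50% of each list Fgf13 had no peak, and at equal list lengths it kept the liver-only pattern.

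The windows of the genes called in 1 tissue only, printed so that their start sequences can be compared, lie at chr1:74771642-74771941 (plus strand, Wnt6), chr10:79754859-79755158 (plus strand, Fgf22), chr13:118714449-118714748 (plus strand, Fgf10) and chrX:59134387-59134686 (minus strand, Fgf13). Capitals again mark CG pairs, of which there were 31 in Wnt6, 18 in Fgf22, 10 in Fgf10 and 37 in Fgf13. Only the peak of yolk sac replicate 1 overlapped the Fgf10 window.
Wnt6: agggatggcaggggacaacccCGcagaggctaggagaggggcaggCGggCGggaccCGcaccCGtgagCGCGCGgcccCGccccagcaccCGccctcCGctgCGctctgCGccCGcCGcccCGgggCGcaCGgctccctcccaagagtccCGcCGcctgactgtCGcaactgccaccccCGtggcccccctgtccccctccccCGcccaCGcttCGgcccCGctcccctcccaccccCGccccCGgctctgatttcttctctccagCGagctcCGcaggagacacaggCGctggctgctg
Fgf22: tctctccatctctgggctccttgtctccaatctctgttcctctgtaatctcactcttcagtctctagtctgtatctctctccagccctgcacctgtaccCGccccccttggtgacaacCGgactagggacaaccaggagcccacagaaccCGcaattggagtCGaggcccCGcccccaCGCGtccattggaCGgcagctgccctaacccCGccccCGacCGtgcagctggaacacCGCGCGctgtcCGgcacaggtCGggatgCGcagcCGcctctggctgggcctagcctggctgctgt
Fgf10: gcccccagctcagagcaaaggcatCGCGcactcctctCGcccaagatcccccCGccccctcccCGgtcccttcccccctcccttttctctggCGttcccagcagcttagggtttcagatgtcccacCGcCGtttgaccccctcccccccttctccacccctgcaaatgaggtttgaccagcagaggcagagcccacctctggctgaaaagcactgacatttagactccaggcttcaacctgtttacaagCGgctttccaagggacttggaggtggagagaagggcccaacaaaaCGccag
Fgf13: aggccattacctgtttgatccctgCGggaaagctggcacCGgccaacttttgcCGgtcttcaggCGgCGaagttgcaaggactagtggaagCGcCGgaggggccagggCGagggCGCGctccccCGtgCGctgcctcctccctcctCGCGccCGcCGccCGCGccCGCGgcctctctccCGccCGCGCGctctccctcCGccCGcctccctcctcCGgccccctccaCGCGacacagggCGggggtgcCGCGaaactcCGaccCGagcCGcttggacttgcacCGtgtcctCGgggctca

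RefSeq windows were matched for 31 of the 41 ligand genes. The 15 with a promoter peak in at least 1 library held 5 to 58 CG pairs (the median over a gene's windows; group median 24), and the 16 without a peak held 6 to 47 (median 19), so the ranges overlapped almost fully. A search of both strands for TATAAA (the TATA box), AGATAA (a form of the GATA motif) and CTTTGA (the core of the TCF/LEF motif) found none of them in the 6 printed windows. Of all windows, 13.6% held TATAAA, 11.2% AGATAA and 16.0% CTTTGA.

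Among the 6 genes that lacked a peak in liver replicate 1 alone, the liver peak always ranked below both yolk sac peaks. These genes were grouped by a missing liver call, so this order is not separate evidence of a tissue difference. The same comparison was not made over the 489 protein-coding genes with this pattern. Fgf2, basic Fgf, an endothelial and mesenchymal growth factor, ranked at 31.6 in liver replicate 2 and at 95.5 and 98.8 in yolk sac. Those yolk sac peaks, 1402 bp wide each, also reached a start of the antisense gene Fgf2os, which the liver peak of 702 bp did not. Fgf9, a mesothelial and epithelial signal to mesenchyme in the lung, ranked at 30.9 in liver and 74.8 and 69.3 in yolk sac, with widths of 502 bp and of 2852 and 2452 bp. Liver replicate 2 had a further, lower peak near the second Fgf9 start (10.4), and the single yolk sac peaks span both liver peaks. In liver replicate 1 the nearest peak to Fgf9 lay 534 bp from a start, just outside the window.

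Wnt11, a β-catenin-independent ligand of cell movement in gastrulation and kidney branching, ranked at 12.6 in liver replicate 2 against 68.8 and 59.7 in yolk sac, at a start 3733 bp downstream of the first. Its first start was called in yolk sac only, at 38.3 and 32.0. Wnt5a, which orients cells and extends the body axis and limbs, ranked at 8.04 in liver replicate 2 with a peak of 102 bp. In yolk sac it reached 31.1 and 69.2, with 702 and 652 bp, and the nearest peak of liver replicate 1 was 995548 bp from its starts. Wnt2b, the partner of Wnt2 in lung specification, ranked at 16.9 against 49.8 and 27.6. These genes thus had a low-ranked peak in liver replicate 2 and, by the choice of pattern, none in liver replicate 1.

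The remaining calls were single or split. Fgf11, an intracellular Fgf, had 102 bp at percentile 6.71 in liver replicate 2 and 652 bp at 16.5 in yolk sac replicate 1. Wnt10b, which holds back fat cell formation, had 102 bp at 11.5, and Wnt9b, an inducer of kidney tubules, had 302 bp at 23.8, each in yolk sac replicate 1. Several calls lay near the 500 bp limit. Just inside were Fgf11 at 264 and 414 bp, Fgf10 at 347 bp and Wnt10b at 377 bp. Just outside were Fgf9 at 534 bp in liver replicate 1, Fgf21 at 661 and 911 bp in yolk sac, and Fgf11 at 744 bp in yolk sac replicate 2 and 894 bp in liver replicate 1.

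Ligand genes with no promoter peak in any list included the 8 Wnt genes Wnt1, Wnt3, Wnt3a, Wnt7a, Wnt8a, Wnt8b, Wnt10a and Wnt16, several of which pattern the early axis and nervous system. They also included the 9 secreted Fgf genes Fgf3, Fgf4, Fgf5, Fgf6, Fgf7, Fgf8, Fgf16, Fgf17 and Fgf18, among them the gastrulation signals Fgf4 and Fgf8. All 3 endocrine genes were in this group: Fgf15, the gut hormone that represses bile acid synthesis, Fgf21, the liver's fasting hormone, and Fgf23, the bone hormone of phosphate balance. So were the intracellular Fgf12 and Fgf14. A gene without a peak may still be transcribed below what the caller reports at these unknown depths.

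Called ligand genes ranked low in the liver lists and higher in the yolk sac lists. Their median percentile was 20.1 and 29.1 in the liver libraries and 64.2 and 69.3 in the yolk sac libraries. Over all called protein-coding genes the medians were 67.6 and 67.0 in liver and 71.6 and 72.0 in yolk sac. Thus the ligand median was far under the gene median in liver and slightly under it in yolk sac. In liver only 1 of 6 and 2 of 13 called members stood at or above percentile 50, where 76.8% and 74.6% of called genes did. In yolk sac 10 of 18 and 10 of 15 called members did, against 85.6% and 85.0% of called genes. The share of members was thus lower than that of genes in both tissues. Median widths were 627 and 702 bp in liver and 1277 and 1152 bp in yolk sac, where all called genes had 1652, 1502, 1702 and 1552 bp in the same order. Different sets of members enter these medians, and yolk sac percentiles are taken over longer lists. In the equally long lists the difference of the tissue medians of percentile was 32.8 in place of 42.1, and in the higher-scoring 50% it was 3.6. That last setting removes low-ranked peaks by construction and leaves a mean of 1.5 called members in liver against 10 in yolk sac.

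Promoter peaks at markers of other cell types are given beside these calls, with percentiles summed over each marker list. A marker without a peak adds nothing to its sum, and yolk sac percentiles again come from longer lists. Erythroid markers summed to 493 and 480 in liver against 140 and 141 in yolk sac, and hepatocyte markers to 256 and 161 against 293 and 249. Of 6 mesenchymal marker genes (Col1a1, Col1a2, Pdgfra, Twist1, Hand1 and Dcn), 3, 5, 6 and 6 had a promoter peak in liver replicates 1 and 2 and yolk sac replicates 1 and 2. Their summed percentile was 91 and 210 in liver and 441 and 464 in yolk sac. Endothelial markers (Pecam1, Cdh5, Kdr, Tek and Tie1) were called in 4, 5, 5 and 5 of 5 cases, with summed percentiles of 231 and 224 in liver against 393 and 356 in yolk sac. For Stab1, Stab2 and Lyve1, of sinusoidal and lymphatic endothelium, the sums were 37.4 and 59.8 against 145 and 125. The 4 stellate cell markers, Lhx2, Des, Reln and Ngfr, summed to 148 and 190 against 202 and 225, with 3, 4, 3 and 4 called. Lhx2, Des and Ngfr ranked higher in yolk sac, whereas Reln went the other way. It stood at 87.7 and 71.3 in liver and at 1.19 in yolk sac replicate 2, with no peak in yolk sac replicate 1. For the 4 macrophage markers the sums were 52.9 and 51.1 against 107 and 87.1, with Csf1r and Adgre1 without a peak in liver. Single markers did not all follow these sums. Percentiles of Tie1, Twist1, the macrophage marker Ptprc and the erythroid marker Tfrc overlapped between the tissues. Tie1 stood at 91.3 and 76.4 in liver and 86.9 and 59.1 in yolk sac. For Tfrc the values were 81.5 and 58.9 against 71.6 and 69.6. Lyve1 ranked at 43.1 in liver replicate 2, above 40.5 and 40.3 in yolk sac, with no peak in liver replicate 1. Alb, Apoa1 and Afp overlapped as well, as did the hepatocyte sums. Pdgfra, Dcn, Tek, Ngfr and Lyve1, from several of these lists, had the same pattern as Fgf2 and Wnt5a, with liver replicate 1 alone lacking a peak. The other mesenchymal markers did not: Col1a1, Col1a2 and Twist1 were called in all libraries and Hand1 in yolk sac only. All 5 mesothelial markers, Wt1, Msln, Upk3b, Krt19 and Upk1b, had promoter peaks in each yolk sac library and in neither liver library. The part that these cells have in the ligand calls was not tested.

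Around the genes, the yolk sac lists held more peaks. Between the outer ends of the ligand genes, but away from their own starts, lay 7 and 6 peaks of the liver libraries and 21 and 20 of the yolk sac libraries. The means of 6.5 ± 0.707 and 20.5 ± 0.707 (SD, n = 2) gave a ratio of 3.15, against 1.9 for whole lists. Fgf1 alone held 9 and 8 of the yolk sac peaks and 0 of the liver peaks. Without it, a choice made after the data were seen, 7 and 6 peaks stood against 12 and 12, a ratio of 1.85, close to that of whole lists. When peaks at the start of any gene were set aside, 5 and 4 remained in liver and 18 and 17 in yolk sac, or 9 and 9 in yolk sac without Fgf1. Within 20 kb outside the genes, liver had 23 and 23 peaks and yolk sac 44 and 33, a ratio of 1.67. With peaks at the start of any gene set aside, the flanks held 9 and 9 in liver and 26 and 17 in yolk sac. That ratio was 2.39, or 2.17 without Fgf1. At equal list lengths the difference of means fell from 14 to 0.5 for gene bodies and from 15.5 to 3 for the flanks.

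Gene by gene, 31 ligand genes had a peak in the gene or within 20 kb in at least 1 library. Both yolk sac counts exceeded both liver counts in 12 of them, and the reverse held for Fgf13 alone, with 1 peak in each liver library and 0 in yolk sac. Over 17277 protein-coding genes the shares were 46.4% and 7.51%. For each such gene the exact two-sided permutation p was 0.33, the smallest that 2 against 2 libraries allow, and the Benjamini-Hochberg adjusted p over all 17277 genes was 0.618, so no single gene passed a test. At equal list lengths, an analysis added after the data were seen, 27 ligand genes had a peak. There the yolk sac was higher for 6 (Fgf1, Wnt5b, Wnt6, Wnt7b, Wnt9a and Wnt10a) and the liver for 5 (Fgf11, Fgf13, Wnt1, Wnt9b and Wnt10b). These counts differ by 1 gene and are not independent, since Wnt1 and Wnt10b share a liver peak and Wnt6 and Wnt10a share yolk sac peaks. Over all genes with a peak, 15.0% were higher in yolk sac and 26.8% in liver.

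**Figure D3:**
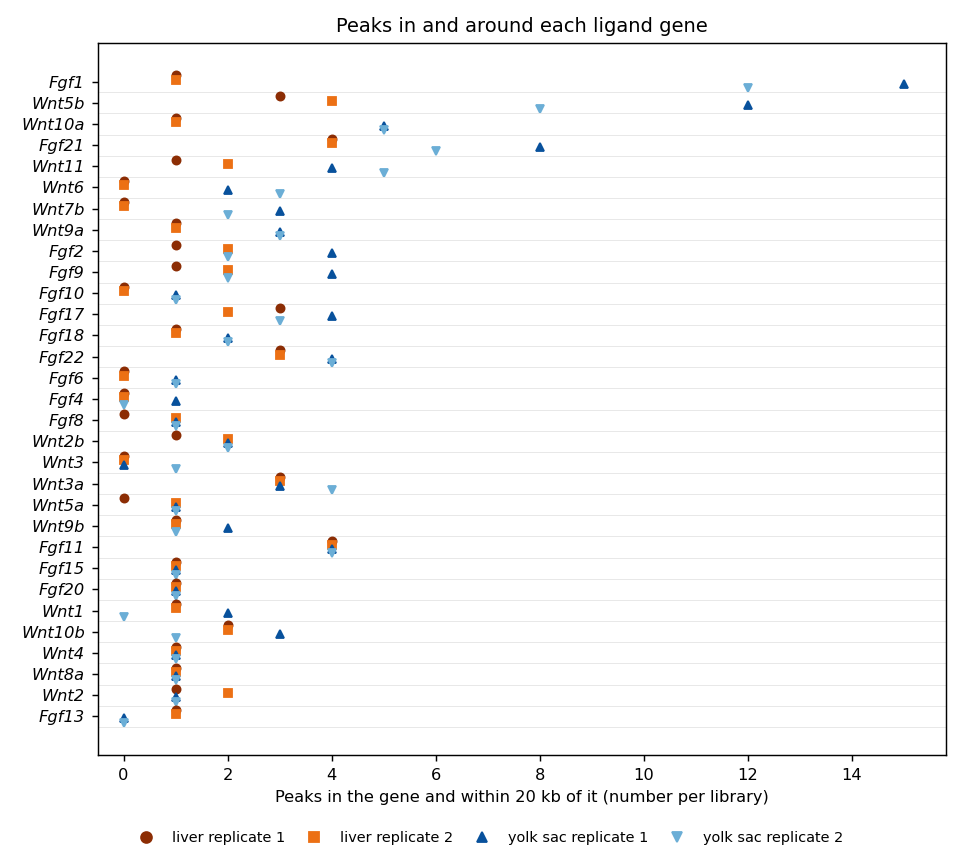
Number of peaks in each gene and within 20 kb of it (x axis) for the 31 ligand genes with at least 1 such peak (y axis, ordered by the difference between tissue means); each symbol is 1 library, shifted slightly up or down so that equal counts can be seen. Fgf1 stands furthest apart with 15 and 12 yolk sac peaks against 1 and 1 in liver, and Fgf13 is the gene with peaks in the liver libraries only.

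The 5 genes with the largest yolk sac excess were Fgf1, Wnt5b, Wnt10a, Fgf21 and Wnt11. Fgf1 went from 1 and 1 peaks in liver to 15 and 12 in yolk sac. Besides its starts, 6 intronic regions were called in yolk sac only, in both libraries. The highest-ranked were chr18:38905851-38907002 (percentiles 90.5 and 20.8) and chr18:38880651-38881952 (66.9 and 49.3). A further yolk-sac-only region lay at chr18:38937901-38939752, centred at -9354 bp from the first start (27.7 and 73.0). All of these also lie within Arhgap26, a gene that overlaps Fgf1, so their target is not given by position. Wnt5b had 3 and 4 peaks in liver against 12 and 8 in yolk sac. Its intron held a region in all libraries, chr6:119451401-119453002, at 19.0 and 42.7 in liver and 79.7 and 79.9 in yolk sac.

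Wnt10a, a ligand of teeth, hair and skin, had no promoter peak but counted 5 and 5 nearby peaks in yolk sac against 1 and 1 in liver. Among these was the Wnt6 promoter region, a single peak in yolk sac replicate 1. In replicate 2 both pieces of its split call were counted (23.6 and 51.1). Another, chr1:74808001-74808852, was at no annotated start and was called in yolk sac only (87.3 and 88.6), and the one at chr1:74803251-74803552 overlapped an exon of Wnt10a (19.0 and 31.5). Fgf21 went from 4 and 4 peaks in liver to 8 and 6 in yolk sac, several of them at starts of the neighbours Fut1, Izumo1 and Rasip1. The yolk-sac-only region chr7:45610451-45611452, at no start, reached 89.6 and 98.9. For Wnt11 the counts were 1 and 2 in liver and 4 and 5 in yolk sac.

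**Figure D4:**
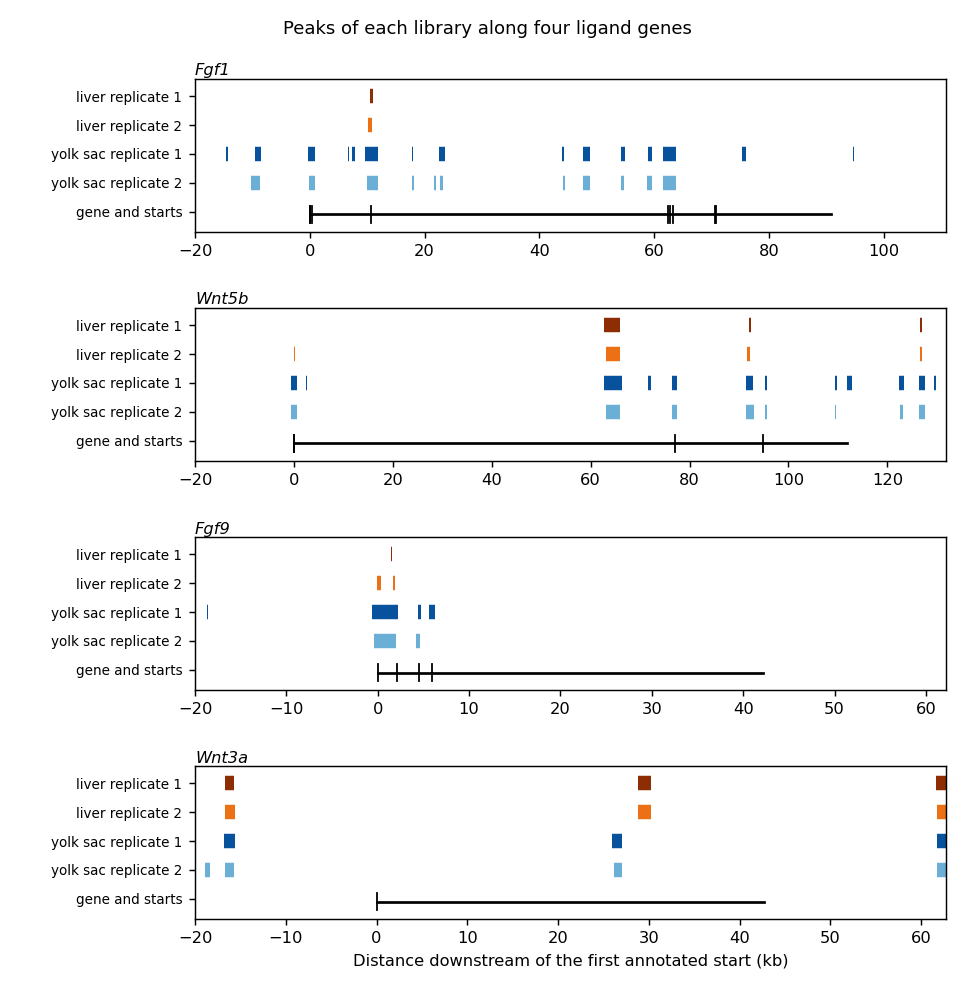
Peaks of each library (coloured boxes, drawn to scale) along Fgf1, Wnt5b, Fgf9 and Wnt3a, against the distance downstream of the first annotated start in kb (x axis, to 20 kb beyond each end); the black line is the gene and black ticks are its starts. Liver rows of Fgf1 hold a single box at the start 10701 bp downstream, and the Wnt3a intron has separate liver and yolk sac boxes.

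Regions at no annotated start were merged over the 4 lists wherever peaks overlapped. Ligand genes and their 20 kb flanks held 49 of them. Of these, 18 were called in both yolk sac libraries only (36.7%, against 40.3% of all 42751 such regions), and 1 in both liver libraries only (2.04%, against 8.01%). A further 8 were called in every library (16.3%, against 8.92%). The liver-only region lay in an intron of Wnt3a, the Wnt of the tail bud and hippocampus, at chr11:59260501-59261952 (71.9 and 72.0). In the same gene a yolk-sac-only intronic region followed at chr11:59263751-59264752 (88.1 and 61.8). Their centres were 29526 and 26501 bp downstream of the Wnt3a start, which had no peak in any library.

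Other distal regions near ligand genes ranked differently in the tissues. An intron of Wnt9b held chr11:103734851-103736102 in all libraries, at 99.8 and 92.2 in liver and 41.8 and 22.4 in yolk sac, although its promoter had no liver peak. In an exon of Wnt10b, chr15:98772451-98772952 ranked at 59.3 and 22.9 in liver and 0.766 in yolk sac replicate 1, with no peak in replicate 2. The opposite order held upstream of Wnt2b at chr3:104967551-104968602, with 12.9 and 36.4 in liver and 92.3 and 75.9 in yolk sac. Yolk-sac-only regions at high rank flanked Wnt9a (chr11:59345851-59347152, 82.4 and 91.7) and Wnt7b (chr15:85522851-85524152, 85.4 and 67.8). Fgf18, a cartilage and bone signal without a promoter peak, had one downstream at chr11:33114301-33114952 (30.8 and 60.9). No peak in any list lay in or within 20 kb of Wnt7a, Wnt8b, Wnt16, Fgf3, Fgf5, Fgf7, Fgf12, Fgf14, Fgf16 and Fgf23.

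Genes that receive and modify these signals were called more widely than the ligands. Of 68 genes in the pathway lists, 42 had a promoter peak in all libraries (61.8%, against 53.8% of all genes) and 10 in none (14.7%, against 34.2%). A peak in both yolk sac libraries only was found at 3 (4.41%, against 5.25%) and in both liver libraries only at 3 (4.41%, against 1.01%). The calls per library were 45, 54, 54 and 54 of 68, where 56.1%, 57.9%, 63.8% and 62.4% of all genes were called. Of 16 Wnt receptors and co-receptors, 13 were called in all libraries. Of the 68 genes, 8 lacked a peak in liver replicate 1 alone, a pattern of 2.23% of all genes. They were Ror1, Ror2, Sfrp1, Sfrp2, Frzb, Rspo3, Tcf7 and Nkd2. Ror1 and Ror2 are receptors for Wnt5a, which also had this pattern, and a link between these calls was not tested. Ror2 ranked at 32.3 in liver replicate 2 and at 91.9 and 86.5 in yolk sac. Both genes of Wnt secretion, Porcn and Wls, were called in every library. Of 7 Fgf receptor and co-receptor genes 6 were called in all libraries, and Kl, the co-receptor of Fgf23, in yolk sac only (19.1 and 8.11).

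Secreted antagonists and surface inhibitors of Wnt were mixed, with 5 of 16 called in all libraries. Dkk2, an Lrp inhibitor, was yolk sac only (62.8 and 69.0), and Sfrp4, a Frizzled-related inhibitor, liver only (38.6 and 31.6). Sfrp1, Sfrp2 and Frzb had the pattern of Wnt5b, with liver replicate 2 at 35.4, 29.4 and 29.0. Among the 7 potentiators, Rspo1 was yolk sac only (41.7 and 6.31) and its receptor Lgr5 liver only (38.6 and 43.9). Of 9 nuclear effectors and common targets 5 were called in all libraries, among them Axin2, a widely used readout of β-catenin signalling, at 57.6 and 35.6 in liver and 59.1 and 60.5 in yolk sac. Feedback inhibitors and targets of Fgf signalling were called in all libraries in 10 of 11 cases. The exception was Etv4, a transcription factor induced by Fgf, with peaks in liver only (22.0 and 41.8).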

How the data were processed

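PRO-seq was performed on 2 liver and 2 yolk sac pools, grouped by their labels. The authors deposited 1 peak list per library. Column 5 of each holds a score, the deposited score of the peak caller, without a unit and not scaled between libraries. The submitters' processing notes name Bowtie2, bedtools and mm10, with no versions; the version of dREG and its filters are not given in the sources used here. The lists matched GENCODE M21: 33.5% to 55.8% of peaks overlapped a start window, and 11.1% to 14.6% did after a shift of 5 kb.

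Peaks were joined to genes with Python 3.11.15, numpy 2.4.6 and pandas 2.3.3. A promoter window was 500 bp either side of any start, and the flank 20 kb. On simulated lists the code returned the pattern of 200 of 200 planted genes. Planted peaks lay inside the windows of genes away from other coding starts, so shared windows, split peaks and window edges were not tried. Single genes were tested by exact permutation (scipy 1.17.1) with Benjamini-Hochberg adjustment over all genes; no test was made over the ligand list. Named were all members with a promoter peak, those without one by group, and the 5 with the largest tissue difference in peak counts in each direction. Members and lists were chosen with earlier results of these data known.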

Additional observations from a re-analysis of the deposited data

How the results depend on the processing

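Of 109 recomputed summary values, 82 kept their direction and stayed within the spread or within 1.5 times the main count, 27 moved and 0 reversed. The 82 include the values with a block on replicate number, described below, which equal the main ones by arithmetic. Of 190 promoter-call values for single genes, 138 stayed, 51 moved and 1 reversed. The reversal was Wnt2b, whose promoter call, as the share of yolk sac libraries minus the share of liver libraries, went from 0.5 to -0.5 at equal list lengths (24333 peaks each). At equal lengths the differences, yolk sac minus liver, were 0.5 for members called, 0.5 for body peaks, 3 for flank peaks, 32.8 for the median percentile and 900 bp for the median width, with 0 yolk-sac-only members and 1 yolk-sac-only pathway gene. With the higher-scoring 50% of each list, the body difference was 1.5, the percentile difference 3.6 and the width difference 112 bp. That setting gave 7 yolk-sac-only, 0 liver-only and 1 all-library members, and 10 yolk-sac-only and 1 liver-only pathway genes. Requiring the peak midpoint in the window gave 32.5 for percentile and 325 bp for width, with 2 liver-only members and 5 liver-only pathway genes. The body difference was 16 with a window of 250 bp and 13 without peaks at any start. Without Fgf1, a choice made after the data were seen, it was 5.5, and the flank difference was 13.5. With Fgf1 kept, the flank difference was 9 at 10 kb and 39 at 50 kb. Leaving out each replicate in turn gave 4 to 10 yolk-sac-only members, 5 to 11 members in all remaining libraries and 3 to 11 yolk-sac-only pathway genes. The cause of these shifts was not tested, apart from the fewer peaks or libraries that a setting keeps by construction.

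The labels do not say whether pools with the same replicate number came from the same embryos, and the numbers were not taken as pairs. Over 17277 genes, deviations of same-numbered libraries in nearby peaks correlated at r = 0.0105. With the replicate block the differences stayed at 7 members, 14 body peaks, 15.5 flank peaks, 42.1 percentile points and 550 bp, and within-number differences in members called were 12 and 2. Depth is unknown, so absent peaks at low-ranked genes cannot be read as absent transcription.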
